A study of Mus musculus with 19 samples.

Results

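Contractile and actin cytoskeleton genes were followed by chromatin accessibility while mouse neurospheres (NSPs) turned into astrocytes. The 10 genes were Acta2, Tagln, Cnn1, Myl9, Srf, Palld, Tpm1, Tpm2, Vcl and Flna. A peak was assigned to a gene when its centre lay in the gene body or within 10 kb of either end (RefSeq genes, GRCm38.p6). This rule took 72 of the 90154 peaks in the ATAC-seq table, and each of the 10 genes had at least 2. The list was chosen by the accessibility gain of a peak inside Palld at 24 h over NSPs, one of the strongest of that contrast. That contrast is therefore only described here, and its calls are not used as a test of the list.

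Actin filaments give a cell its shape and its pull on the substrate. Acta2 encodes smooth muscle alpha-actin, and Tagln (transgelin) and Cnn1 (calponin) encode actin-binding proteins that mark contractile cells. Myl9 is a regulatory light chain of myosin II, and Tpm1 and Tpm2 are tropomyosins that coat the filament. Palld (palladin) and Flna (filamin A) crosslink filaments, and Vcl (vinculin) ties them to adhesion sites. Srf, the serum response factor, is a transcription factor that binds the CArG box and drives many genes of this kind when actin polymerises. Astrocytes are known for their large change of shape on differentiation and in inflammation, and contractile genes are used as markers of mural cells in brain tissue.

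The 19 libraries came from NSPs of wild type C57BL/6J embryos at embryonic day 14. NSPs were kept as floating spheres in medium with EGF and without serum (3 libraries). Differentiating cells were attached to coated plates in serum-containing medium for 24 h (3 libraries), 72 h (3) or 1 week (4), or for 24 h (3) and 72 h (3) with TNF at 50 ng/ml. Change of medium, attachment and time therefore came together in each comparison with NSPs. No library of 1 week with TNF was analysed here. The titles name all 19 samples astrocytes, NSPs among them, which are titled as untreated at 0 h. The start peak of Gfap, the classical astrocyte filament gene, rose from a mean of 107.6 normalised reads in NSPs to 528.8 at 72 h. It had 257.9 at 1 week (-1.03 from 72 h, limma, adjusted p = 0.00026). Of the other astrocyte markers at 72 h, Gja1 was higher than in NSPs (1.28), Aldh1l1 lower (-1.17; limma, adjusted p = 4e-06 and 0.0073) and Slc1a3 not called (0.10), and Aqp4 had no start peak. Cultures were made from single brains, but which library came from which brain was not stated, so p-values measure the spread between these libraries, which may be technical.

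ATAC-seq measures how often a transposase cuts DNA, and values are given as normalised reads per peak of 500 bp. Reads in peaks ranged from 9640256 to 39349111 per library. Of the mural marker genes, Pdgfrb, Rgs5, Des and Abcc9 had no start peak, nor had any of the 4 endothelial markers, and 1 of 5 fibroblast markers had one. The summed start peaks of the 3 mural markers with a peak ranged from 499 to 754 in NSPs, 522 to 636 at 24 h, 543 to 557 at 72 h and 480 to 577 at 1 week, and from 492 to 548 and 467 to 490 with TNF at 24 h and 72 h. Within this sum Myh11 rose and Kcnj8 fell by 72 h (1.39 and -0.68, limma, adjusted p = 8.6e-05 and 0.0017), and Cspg4 was not called (-0.34). A summed signal cannot tell fewer open cells from less opening per cell. NSP replicate 1 stood apart from the other NSP libraries by over 2-fold at 10 of the 72 peaks, and at 13.0% of all peaks tested. A tag of unstated meaning stands in the names of all libraries of 72 h and 1 week and of none of NSPs and 24 h, so it cannot be told apart from what separates those later groups and NSPs.

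Sequences upstream of the start sites were taken from RefSeq (GRCm38.p6), for the 9 genes with an entry. Palld has 3 start sites, which gave 11 windows of 250 bases. The CArG box occurred on either strand in 3 of the 11 windows, those of Myl9, Vcl and Srf, against 1.47% of 32851 promoters. The windows of these 3 genes are shown with each CArG box in capitals, beside that of Acta2, in which no exact match was found. Near matches, such as ccctatatgg and ccttgtttgg in the Acta2 window, were not counted in any promoter. All 4 windows lay wholly inside the peak described for the gene, so the signal given for each gene was measured over these bases.
Srf (chr17:46556163-46556412, minus strand): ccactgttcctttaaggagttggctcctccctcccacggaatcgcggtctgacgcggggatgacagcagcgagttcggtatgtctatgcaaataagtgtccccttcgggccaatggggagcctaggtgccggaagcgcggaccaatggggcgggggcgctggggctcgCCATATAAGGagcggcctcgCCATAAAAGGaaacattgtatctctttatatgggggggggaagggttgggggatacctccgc
Myl9 (chr2:156775214-156775463, plus strand): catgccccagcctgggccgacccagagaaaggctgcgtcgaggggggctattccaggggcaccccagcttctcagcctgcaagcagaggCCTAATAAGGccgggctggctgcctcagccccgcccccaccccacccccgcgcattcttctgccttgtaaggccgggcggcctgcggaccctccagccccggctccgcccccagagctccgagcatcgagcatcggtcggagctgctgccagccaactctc
Vcl (chr14:20929148-20929397, plus strand): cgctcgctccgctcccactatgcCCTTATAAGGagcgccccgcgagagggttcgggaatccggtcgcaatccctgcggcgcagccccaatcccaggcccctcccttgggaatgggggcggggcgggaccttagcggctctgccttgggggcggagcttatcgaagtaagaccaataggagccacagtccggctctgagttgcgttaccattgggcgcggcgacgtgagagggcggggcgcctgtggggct
Acta2 (chr19:34255374-34255623, minus strand): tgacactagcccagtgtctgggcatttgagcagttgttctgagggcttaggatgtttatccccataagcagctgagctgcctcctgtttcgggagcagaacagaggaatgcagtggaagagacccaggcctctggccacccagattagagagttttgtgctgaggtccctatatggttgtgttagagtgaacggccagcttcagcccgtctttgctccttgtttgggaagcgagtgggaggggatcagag

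The Srf window held a pair of CArG boxes, CCATATAAGG and CCATAAAAGG, which began 82 and 62 bases before the start. The Myl9 box CCTAATAAGG began 161 bases before the start, and the Vcl box CCTTATAAGG 227 bases before it. The AP-1 type motif TGANTCA was found in 1 of the 11 windows, that of the innermost Palld start, and in 6.75% of all promoters. The TEAD type motif GGAATG was found on either strand in 5 of 11, in Acta2, Flna, Palld, Tpm1 and Vcl, and in 12.6% of all. A GGAATG run can share letters with the end of a CArG box, and in the Vcl window, the one with both, they began 143 and 227 bases before the start. These matches are a description of letters in a window.

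Most of the 72 peaks lay away from start sites. Of these, 13 were centred within 1 kb of a start site (for Tagln, whose strand is not in the table used, of a gene end), 44 in the rest of a gene body and 15 in a flank. Palld, a gene of 391277 bp, held 29 peaks, Vcl 11, Flna 6, and the smaller genes 2 to 5 each. Another gene's body or end lay at 11 peaks, such as those of Elof1 beside Cnn1 and of Sidt2 beside Tagln, so that these cannot be assigned to one gene. Exons and introns were not assigned.

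**Figure D1:**
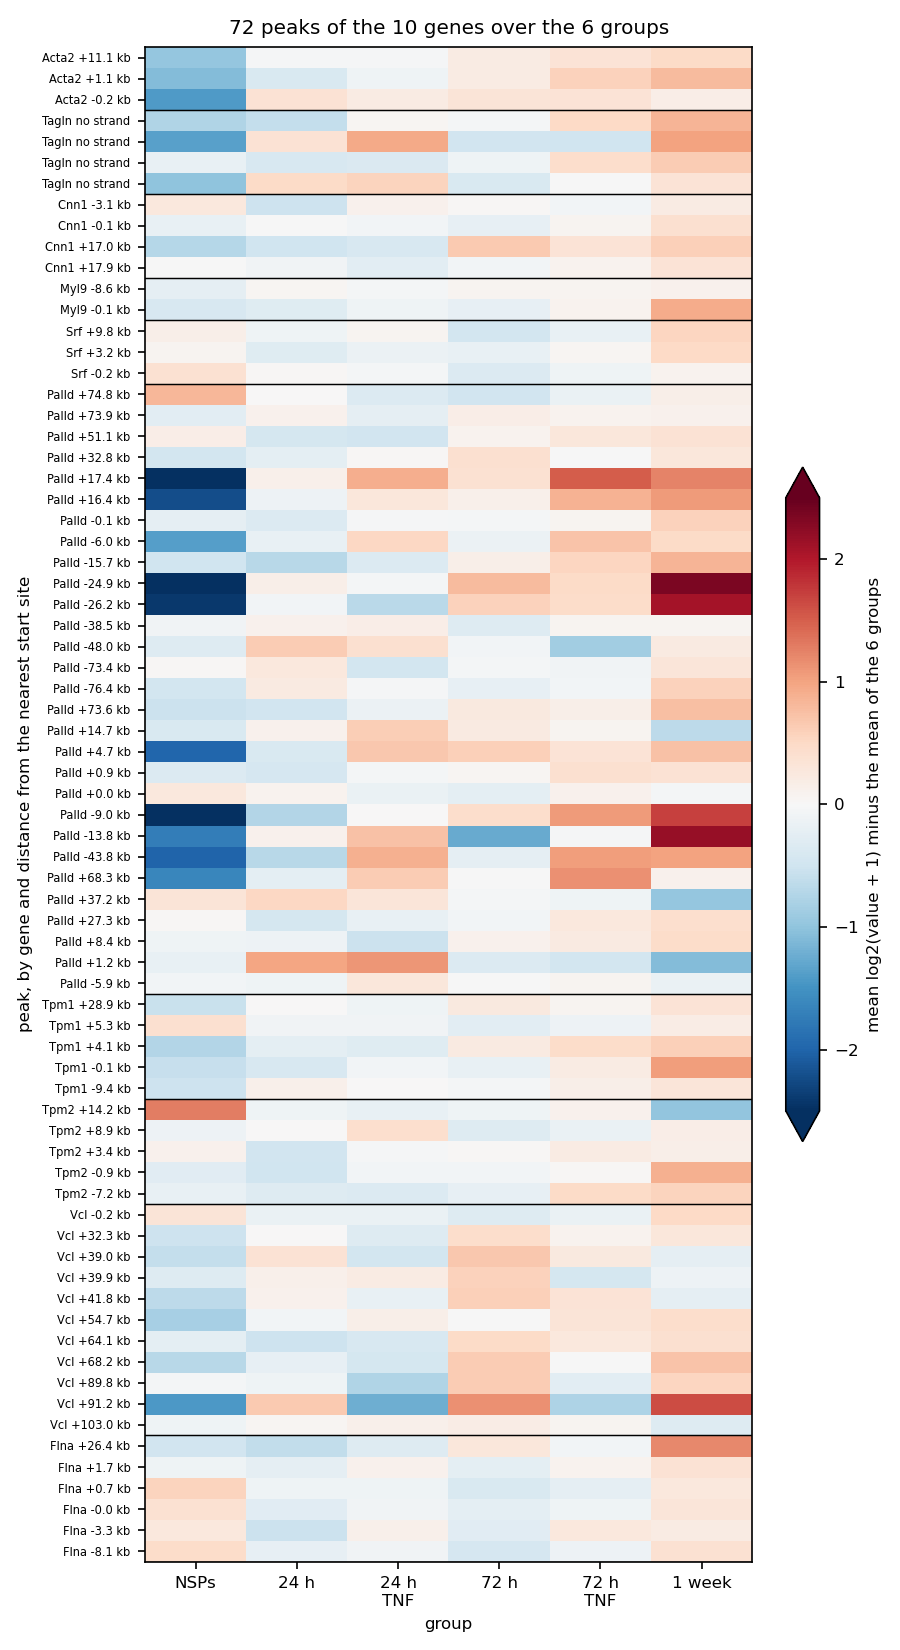
Accessibility of the 72 peaks (rows, by gene and by kb from the nearest start site) in the 6 groups (columns). Colour gives the group's mean log2(value + 1) minus the mean of the 6 groups, cut at the ends of the scale. The Palld peaks 24.9, 17.4 and 26.2 kb from a start span the widest ranges of group means, 6.09, 5.70 and 4.49 on the log2 scale. The peak at 17.4 kb chose the list by its gain at 24 h over NSPs, so its range is only a description.

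Start peaks of the contractile genes followed separate courses. At Acta2 the start peak (chr19:34255344-34255844) had 26.9, 60.3 and 53.8 normalised reads in NSPs and 168.5, 138.7 and 158.9 at 24 h. It had 148, 137.6 and 169.5 at 72 h, and between 124.4 and 147 in the 4 libraries of 1 week. Every differentiated library lay above every NSP library, and the differentiated groups overlapped. The log2 change from NSPs was 1.74 ± 0.21 (SE) at 72 h and 1.58 ± 0.19 at 1 week (limma, adjusted p = 3.4e-08 and 3.6e-08). Without NSP replicate 1 these were 1.39 and 1.22. The peak 1.08 kb past the Acta2 start rose as well, from a mean of 55.4 ± 29.7 (SD, n = 3) in NSPs to 186 ± 22.6 (n = 4) at 1 week, by 1.89 ± 0.25 on the log2 scale (limma, adjusted p = 1.4e-07). All 3 Acta2 peaks were called higher than in NSPs at 72 h and at 1 week, where 28.3% and 33.7% of all peaks tested were.

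Srf, the factor itself, fell at its start peak. Of all start peaks tested, 57.8% were called lower and 6.93% higher at 72 h than in NSPs. The Srf start peak (chr17:46556081-46556581) stood at 1828, 1660 and 1505 normalised reads in NSPs and at 1249, 1339 and 1292 at 24 h. It stood at 972, 1053 and 1004 at 72 h. The values of the 3 groups did not overlap. The change from NSPs to 72 h was -0.72 ± 0.10 (limma, adjusted p = 5.6e-07). At 1 week the 4 libraries had 1332, 1337, 1340 and 1437, 0.43 ± 0.09 above 72 h (limma, adjusted p = 0.00067), a direction that turned to -0.18 under loess scaling (adjusted p = 0.08), and 0.09 (adjusted p = 0.38) with total-read scaling. The Srf peak with the widest range, 9.79 kb past the start and at Cul9, went from a mean of 188 in NSPs to 123 at 72 h and 244 at 1 week (0.99 ± 0.15 over 72 h, limma, adjusted p = 1.1e-05). At 1 week the Srf peaks 3.19 and 9.79 kb past the start were above NSPs (0.43 and 0.38, limma, adjusted p = 0.00026 and 0.028). The start peak was below NSPs (-0.29, limma, adjusted p = 0.0088).

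The start peaks of Myl9, Tpm1 and Tpm2 opened late, from 72 h to 1 week. In that step 59.6% of all start peaks tested were called higher, with a median log2 change of 0.42. The Myl9 start peak (chr2:156775065-156775565) had 325 to 479 normalised reads in NSPs, 416 to 436 at 24 h and 441 to 496 at 72 h. NSPs overlapped both of these groups. At 1 week the Myl9 start peak had 1027, 941, 1116 and 922. That was 2.17-fold over 72 h (log2 1.12 ± 0.11, limma, adjusted p = 5.5e-08). Tpm1 (chr9:67049113-67049613) went from a mean of 124.4 ± 33.6 in NSPs and 159 ± 14.7 at 72 h to 376.9 ± 44.1 at 1 week, a change of 1.24 ± 0.17 from 72 h (limma, adjusted p = 2.4e-06). Over all 5 Tpm1 peaks, 3 were called higher and 1 lower already at 72 h than in NSPs, where 28.3% and 30.9% of all peaks tested were. The peak nearest to the Tpm2 start, 0.868 kb before it, went from 79.4 ± 9.58 at 72 h to 156.6 ± 25.4 at 1 week (0.96 ± 0.20, limma, adjusted p = 0.0004). A Tpm2 flank peak at Car9 and Arhgef39 went the other way, from 116 in NSPs to 24.2 at 1 week (-2.26 ± 0.28, limma, adjusted p = 3.8e-08). In the start peaks of Myl9, Tpm1 and Tpm2 every library of 1 week lay above every library of the other 5 groups.

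Vcl, Flna and Cnn1 had other courses at the start. Vcl (chr14:20928993-20929493) had 2901, 2282 and 2318 normalised reads in NSPs, 1399, 1522 and 1897 at 72 h, and 2750, 2528, 3171 and 2808 at 1 week. The fall to 72 h was -0.64 ± 0.12 and the rise to 1 week 0.82 ± 0.11 (limma, adjusted p = 4e-05 and 3.1e-06), and NSPs and 1 week overlapped. Neither was called under loess scaling (-0.13 and 0.09). Flna (chrX:74246285-74246785) also fell to 72 h and rose to 1 week, with means of 638 ± 146, 410 ± 19.2 and 599 ± 31.0 in NSPs, at 72 h and at 1 week (0.55 ± 0.12 from 72 h, limma, adjusted p = 0.00075, not called with total-read scaling at 0.20 or with loess scaling). A second Flna start peak, 0.693 kb past the start, fell from 299 in NSPs to 153 at 72 h (-0.94 ± 0.15, limma, adjusted p = 3e-06), and the Flna flank peak with the widest range rose from 18.8 in NSPs to 60.5 at 1 week (1.68 ± 0.34, limma, adjusted p = 9.5e-05). Cnn1 (chr9:22098951-22099451) stayed between 63 and 97 in NSPs, at 24 h and at 72 h, and had 72.9 to 125 at 1 week (0.60 ± 0.20 over 72 h, limma, adjusted p = 0.018, and 0.26 with total-read scaling, not called). The Cnn1 peak with the widest range, a flank peak at Elof1, went from 78.6 in NSPs to 204 at 72 h and 198 at 1 week (1.32 ± 0.16 over NSPs, limma, adjusted p = 2.6e-08). Among all peaks centred within 1 kb of a start, 59.6% were called higher and 4.52% lower at 1 week than at 72 h, and 10 of the 13 of the listed genes were, with 0 called lower.

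**Figure D2:**
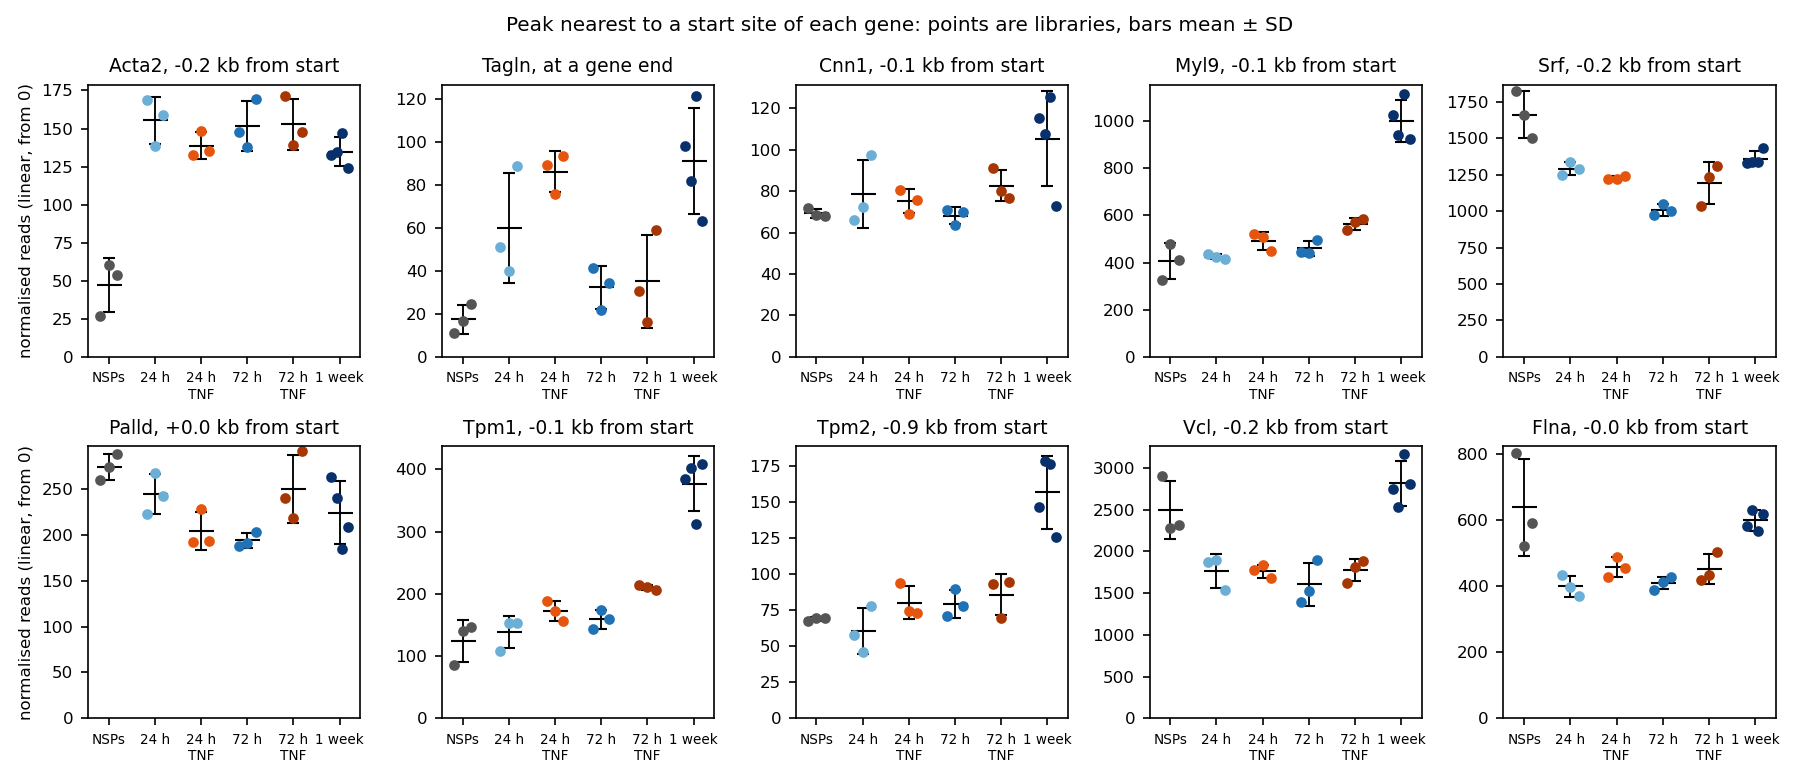
Normalised reads (linear axes from 0) of the peak nearest to a start site of each gene in the 6 groups. Points are libraries, the bar is the mean and whiskers are the SD. Acta2 separates NSPs from all other groups, whereas Myl9, Tpm1 and Tpm2 separate 1 week from all other groups.

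Tagln was open at low levels at its gene end (chr9:45935759-45936259). The peak had 11.1, 16.5 and 24.6 normalised reads in NSPs, 51.2, 39.8 and 88.7 at 24 h, and 41.2, 21.5 and 34.4 at 72 h. At 1 week it had 97.9, 81.8, 121 and 63.3. The NSP and 1 week values did not overlap (2.35 ± 0.35, limma, adjusted p = 9.4e-07), while NSPs and 72 h did. All 4 Tagln peaks were called higher at 1 week than in NSPs and than at 72 h, where 33.7% and 22.5% of all peaks tested were. Of the 4, 3 lay in or at Pcsk7 or Sidt2.

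Over all 72 peaks, 23 were called higher and 13 lower at 24 h than in NSPs, where 24.2% of all peaks tested were higher and 23.0% lower. This contrast chose the list, and the 23 include the Palld peak that chose it. These counts are therefore a description and cannot test the list. At 72 h 32 were called higher and 12 lower (background 28.3% higher and 30.9% lower), with a median log2 change of 0.39 against -0.06 over all peaks. At 1 week 42 were called higher and 6 lower (33.7% and 33.6%), with medians of 0.68 and 0.01. These comparisons share the NSP libraries with the one that chose the list, and the Palld peak that chose it is among the peaks called higher. From 72 h to 1 week, which shares no library with it, 35 were called higher and 7 lower (22.5% and 16.2%), with medians of 0.44 and 0.02. Scaling by total reads shifted the median of all peaks from 0.02 to -0.31 in that step and left 15 higher and 9 lower, when 8.96% and 33.8% of all peaks were. Against NSPs it gave 39 higher and 8 lower at 72 h (36.7% and 20.8% of all).

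Palld held the peaks with the widest range. Its peaks within 1 kb of a start, 2 at the middle start and 1 at the innermost, had narrower ranges, and the peak nearest to the outermost start lay 1.2 kb past it. The middle start peak (chr8:61759790-61760290) had means of 274 ± 14.5 in NSPs, 194 ± 7.73 at 72 h and 224.4 ± 34.6 at 1 week. The innermost one (chr8:61590954-61591454) had 259, 560 and 509 in NSPs and 694 to 766 at 1 week (0.80 ± 0.16, limma, adjusted p = 6e-05, and 0.45 without NSP replicate 1). Across the gene, 16 of the 29 peaks were called higher and 3 lower at 1 week than in NSPs (33.7% and 33.6% of all peaks tested). Those higher include the peak that chose the list. From 72 h to 1 week 12 were called higher and 3 lower (22.5% and 16.2% of all).

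The peak that brought Palld into the list (chr8:61573473-61573973) lies in the gene body 17.4 kb past the innermost start. It had 10.51, 11.3 and 9.30 normalised reads in NSPs and 224.3, 209.5 and 244 at 24 h. With TNF at 24 h it had 375, 386 and 401. It had 283, 227 and 303 at 72 h, 580, 585 and 595 at 72 h with TNF, and 496, 452, 548 and 462 at 1 week. NSPs lay lowest and 72 h with TNF highest, and 24 h and 72 h without TNF were the only neighbouring groups in the order of means that overlapped. Against NSPs the log2 difference reached 4.32 after 24 h, 4.57 after 72 h and 5.43 after 1 week, given as a description. By size of the 24 h gain the peak ranked 77 of 88919. From 72 h to 1 week it rose by 0.86 ± 0.13 (limma, adjusted p = 9.5e-06).

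A pair of peaks 24.9 and 26.2 kb before the innermost start rose further with time. The first (chr8:61615799-61616299) had 11.7, 7.54 and 14.6 normalised reads in NSPs, 216, 140 and 172 at 24 h and 288, 245 and 288 at 72 h. At 1 week it had 795, 770, 920 and 761. This was the widest range of group means of all 72 peaks, 6.09 on the log2 scale. The second (chr8:61617041-61617541) had means of 36.6 ± 8.98, 185 ± 7.83, 290 ± 14.9 and 827 ± 39.1 at the same times. From 72 h to 1 week they rose by 1.56 ± 0.18 and 1.51 ± 0.17 (limma, adjusted p = 4e-07 and 1.5e-07).

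Other Palld peaks moved on their own schedules. The peak 13.8 kb before the middle start (chr8:61773589-61774089) had means of 7.10 in NSPs, 27.3 at 24 h and 11.4 at 72 h, and 109 to 134 at 1 week, a 10.9-fold step from 72 h (log2 3.44 ± 0.34, limma, adjusted p = 4e-08). The peak 37.2 kb past the outermost start (chr8:61865302-61865802) fell from 151 ± 3.81 at 72 h to 79.3 ± 8.55 at 1 week (-0.92 ± 0.20, limma, adjusted p = 0.00058). The one near the end of the gene, 74.8 kb past the innermost start, went from 151.5 ± 29.4 in NSPs to 61.4 ± 15.1 at 72 h (-1.30 ± 0.21, limma, adjusted p = 5.1e-06).

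**Figure D3:**
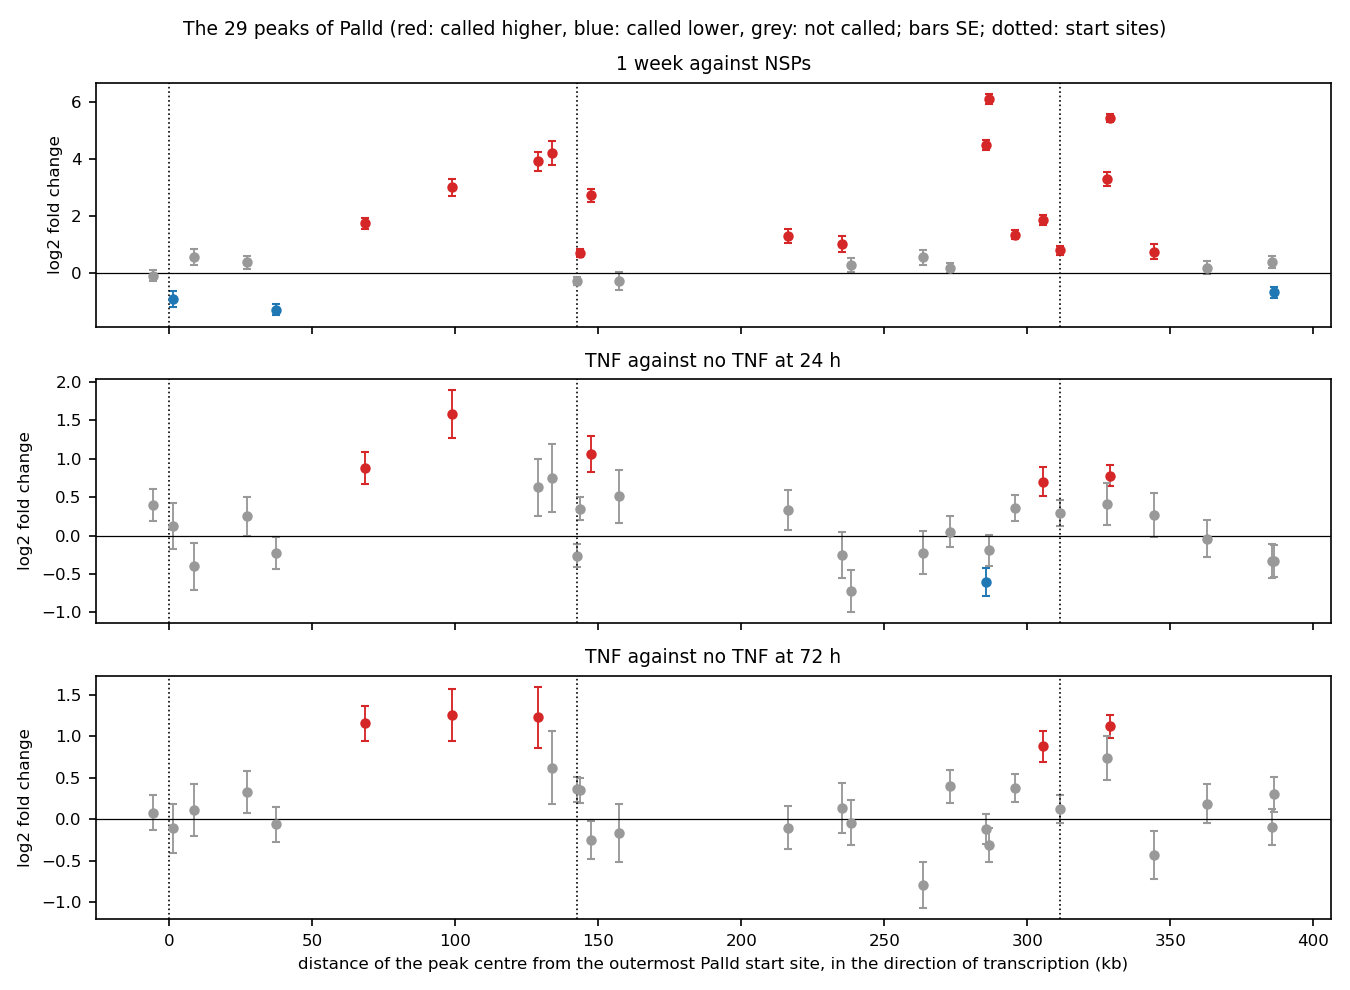
The 29 Palld peaks by distance from the outermost start site along the direction of transcription (kb), with their log2 change from NSPs to 1 week and with TNF at each time. Points are estimates, whiskers are SE, red and blue mark peaks called higher and lower, and dotted lines mark the 3 start sites. The Palld peaks called higher with TNF lie at least 4.74 kb from a dotted line. The peak that chose the list is coloured too, but its colours against NSPs and with TNF at 24 h are not used as a result.

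The Vcl peak with the widest range had a very different course from the Vcl start peak. It lies in the gene body 91.2 kb past the start (chr14:21020391-21020891). The nearest end of a protein-coding gene was that of Ap3m1, and which gene the peak acts on was not tested. The NSP libraries had 430.5, 68.3 and 49.8 normalised reads, so NSP replicate 1 stood near the differentiated cells and far from the other NSP libraries. The peak had 591, 413 and 468 at 24 h, 654, 647 and 761 at 72 h, and 899, 888, 997 and 1069 at 1 week. The log2 change from NSPs was 2.58 ± 0.38 at 72 h and 3.06 ± 0.36 at 1 week (limma, adjusted p = 1.5e-06 and 1.4e-08), and 3.53 and 4.02 without NSP replicate 1. Of the 11 Vcl peaks, 9 were called higher at 72 h than in NSPs and 5 at 1 week, where 28.3% and 33.7% of all peaks were, and 3 were lower at 1 week than at 72 h (-0.91, -0.71 and -0.82). Those higher at 72 h included one 68.2 kb past the start (chr14:20997397-20997897, 1.32 ± 0.14, limma, adjusted p = 2e-09).

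The peaks inside Vcl that were called with TNF were lower, and most of those called inside Palld were higher. At 24 h, with the Palld peak that chose the list left out, 7 of 71 peaks were called higher and 2 lower with TNF (7.06% and 3.53% of all peaks tested). At 72 h 8 of the 72 were called higher and 4 lower (6.24% and 5.55%). Scaling by total reads gave 6 higher and 5 lower at 72 h (4.75% and 7.42% of all). Of the 13 start peaks, limma, edgeR and DESeq2 each called 0 at either time, and by limma 1 and 5 had an unadjusted p under 0.05 at 24 h and 72 h. Without NSP replicate 1, 2 and 3 start peaks were called at 24 h and 72 h. At 72 h limma called 3 when only the groups compared were fitted, and 1 without 72 h TNF replicate 1. Of all start peaks tested, 1.46% were higher and 0.442% lower at 24 h, and 2.98% and 0.866% at 72 h. Without Palld, the other 43 peaks gave 3 higher and 1 lower at 24 h and 3 and 4 at 72 h. The comparisons at 24 h and at 72 h share no libraries, although the first shares the untreated 24 h libraries with the contrast that chose the list.

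TNF reduced the Vcl peak 91.2 kb past the start at both times. It had 157, 121 and 122.5 normalised reads with TNF at 24 h against 413 to 591 without, and 200.3, 170.0 and 172 with TNF at 72 h against 647 to 761. The groups with and without TNF did not overlap. It was 3.64-fold lower at 24 h (log2 -1.86 ± 0.38) and 3.79-fold lower at 72 h (-1.92 ± 0.38; limma, adjusted p = 0.0014 and 0.001). Without NSP replicate 1, whose value widens the common spread of this peak, the adjusted p were 4.7e-14 and 2.3e-14, and DESeq2 gave no adjusted p here. At 72 h 3 more Vcl peaks were called lower, at 39.9 kb (-1.03 ± 0.25), 68.2 kb (-0.65 ± 0.14) and 89.8 kb (-0.89 ± 0.29) past the start (limma, adjusted p = 0.0071, 0.0015 and 0.045), the last in 14 of 29 alternative fits. The Vcl start peak had means of 1767 and 1764 without and with TNF at 24 h, and 1606 and 1775 at 72 h.

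In Palld TNF raised peaks instead. The peak 17.4 kb past the innermost start was 2.18-fold higher with TNF at 72 h (log2 1.12 ± 0.14, limma, adjusted p = 1.9e-06), with no overlap. Its difference at 24 h was 0.78. A call there is not counted, since the untreated 24 h libraries are among those that chose it. Apart from this peak, 4 Palld peaks were called higher at 24 h and 4 at 72 h, and 3 were in both lists (75.0% of each). Over all peaks tested, 51.7% of those called higher at 24 h and 58.5% of those at 72 h were in both. The 3 lay 5.99 kb before the innermost start (0.70 and 0.88), 43.8 kb before the middle start (1.58 and 1.26) and 68.3 kb past the outermost start (0.88 and 1.16). These 3 were named after their values were seen, as were the peaks at 89.8 kb in Vcl, 4.74 kb past the middle Palld start, 3.09 kb before Cnn1 and at the innermost Palld start.

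The second of them (chr8:61803673-61804173) had 17.1, 23.6 and 28.3 normalised reads at 24 h and 66.3, 71.1 and 70.6 with TNF, a level that the untreated cells reached at 1 week, with 66.1 to 81.5. The third (chr8:61834158-61834658) had 87.7, 115 and 133 at 24 h against 213, 195 and 203 with TNF, and 134, 159 and 103 at 72 h against 321, 278 and 276 with TNF. Its 1 week libraries had 117 to 169, all below those of TNF at 72 h. The pair 24.9 and 26.2 kb before the innermost start gave no gain with TNF, and the second of the pair was lower at 24 h (-0.60 ± 0.18, limma, adjusted p = 0.026), with values of 137, 149 and 88.3 against 194, 179 and 182.

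**Figure D4:**
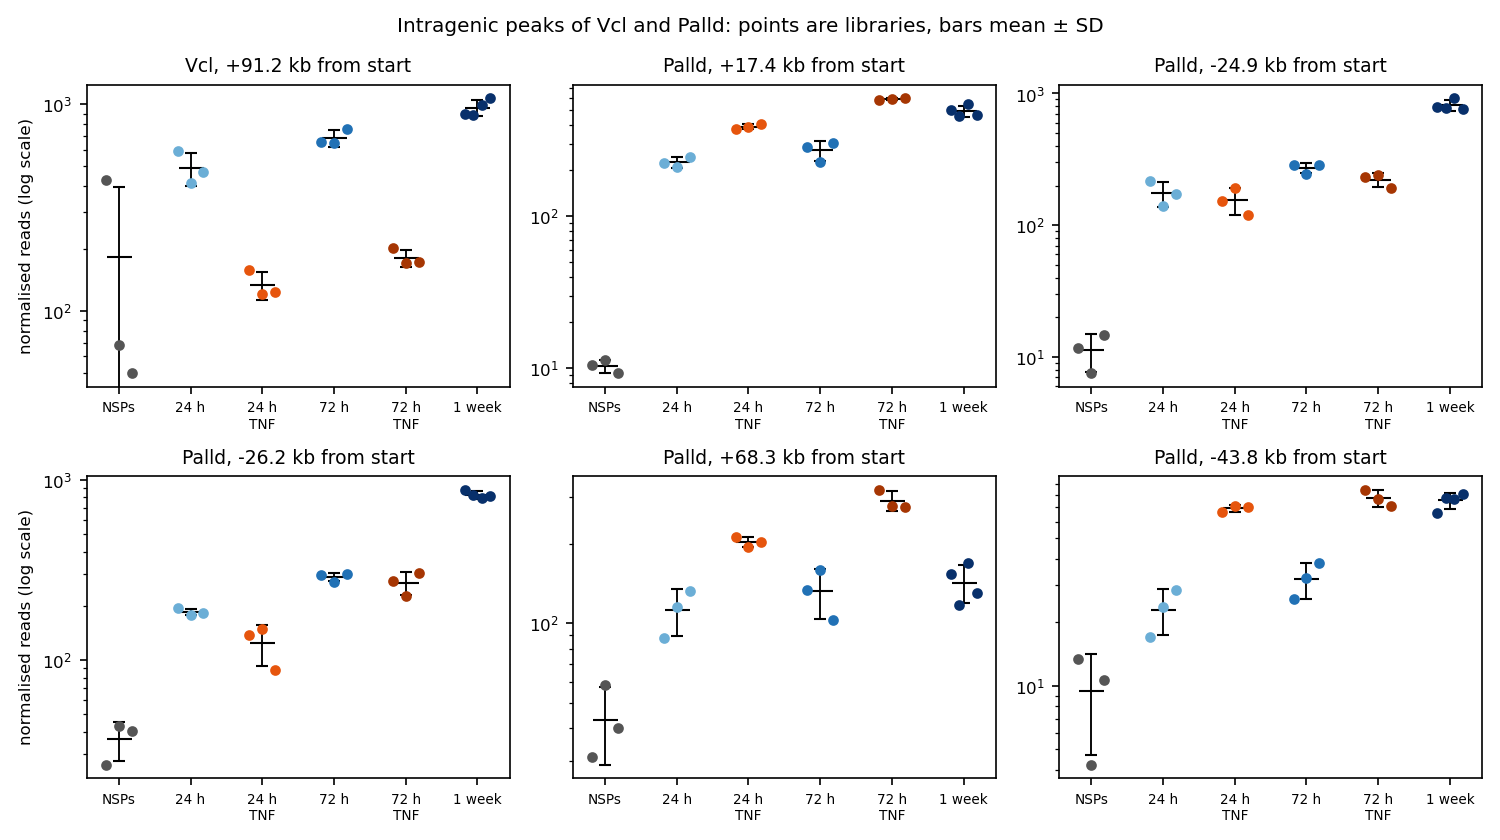
Normalised reads (log axes) of 1 Vcl and 5 Palld peaks in the 6 groups. Points are libraries, bars are the mean and whiskers the SD, cut at the axis where it passes 0. At each of 24 h and 72 h, the TNF libraries lie below the untreated libraries of the same time at the Vcl peak and above them at the Palld peaks 17.4, 68.3 and 43.8 kb from a start. The Palld peak at 17.4 kb chose the list, so its difference at 24 h is not used as a result.

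Fewer peaks of the other genes responded. A Tagln flank peak inside Pcsk7 (chr9:45919804-45920304) had 200, 183 and 246 normalised reads at 24 h against 321, 357 and 311 with TNF (0.66 ± 0.17, limma, adjusted p = 0.013), and was 0.54 ± 0.17 higher at 72 h (adjusted p = 0.043, called in 12 of 29 alternative fits). The Tagln peak at the end of Sidt2 (chr9:45936864-45937364) was higher at 72 h, with 368, 322 and 351 against 236, 242 and 233 (0.55 ± 0.14, limma, adjusted p = 0.0071). The Flna peak 3.26 kb before the start (chrX:74249548-74250048) was higher at both times (0.66 ± 0.18 and 0.54 ± 0.18, limma, adjusted p = 0.013 and 0.042), the second in 16 of 29 alternative fits. A Cnn1 peak 3.09 kb before the start was higher at 24 h (0.62 ± 0.19, limma, adjusted p = 0.032) and not called at 72 h (-0.11). No peak of Acta2, Myl9, Srf, Tpm1 or Tpm2 was called for TNF at either time. At the Acta2 start the 95% interval of the log2 difference with TNF was -0.57 to 0.25 for 24 h and -0.40 to 0.42 for 72 h.

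Whether the TNF response differed between 24 h and 72 h was tested as an interaction, and limma called 0 of 72 peaks (1 of 88919 over the whole table, 0.00112%). At an unadjusted p under 0.05 there were 4 higher and 4 lower among the 72, and edgeR also called 0. DESeq2 called 0 of the 59 to which it gave an adjusted p, and gave none to the other 13. The Palld peak 4.74 kb past the middle start had 64.9, 51.6 and 82.5 normalised reads at 24 h against 131, 99.1 and 197 with TNF, and 118, 136 and 131 at 72 h against 130, 115 and 84.0. Its interaction of -1.31 was called when only the groups compared were fitted (adjusted p = 0.041) and without NSP replicate 1 (0.047).

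**Figure D5:**
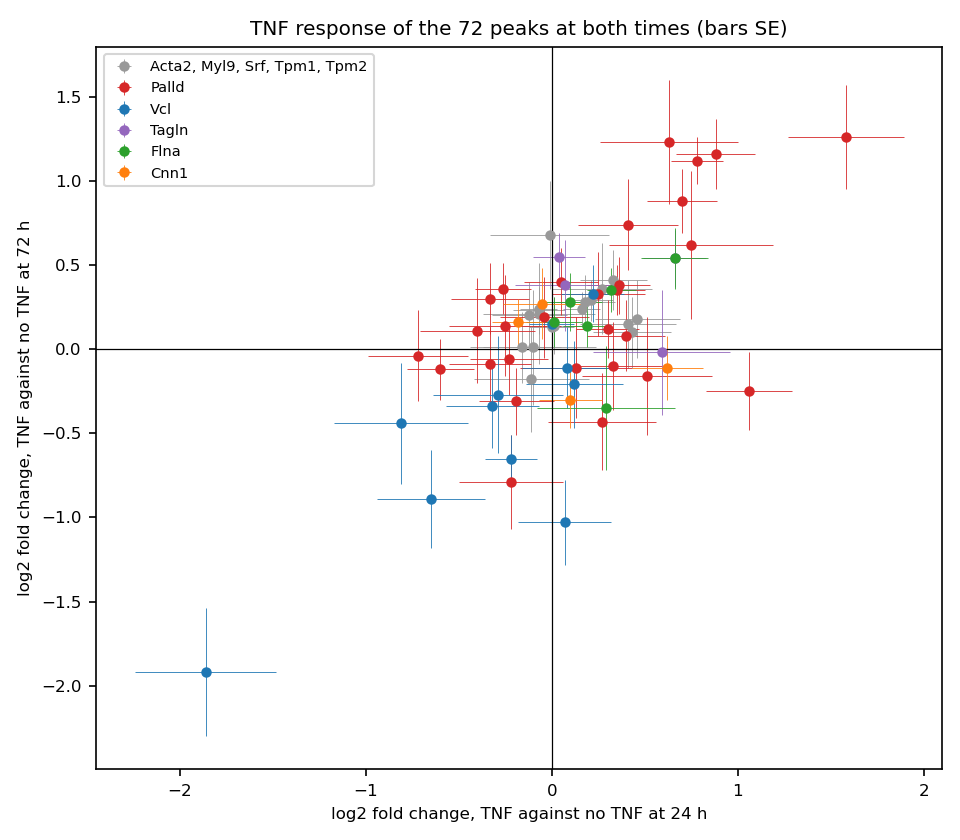
Log2 change with TNF at 24 h (horizontal) and at 72 h (vertical) of the 72 peaks, coloured by gene, with SE whiskers. The Vcl peak 91.2 kb past its start sits alone at the lower left, and the Palld peaks with gains at both times sit at the upper right. These include the Palld peak that chose the list, whose change at 24 h is not used as a result.

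The start peaks of 40 further genes of the actin and Srf pathway were taken for comparison, and 38 had one (Mylk and Cnn2 had none). At 72 h 5 were called higher and 22 lower than in NSPs, with a median log2 change of -0.36, where 6.93% and 57.8% of all start peaks were. From 72 h to 1 week 26 were higher and 1 lower, with a median of 0.52 against 0.42 over all start peaks, of which 59.6% were higher and 4.52% lower. Lmod1 (leiomodin, a filament nucleator of smooth muscle) rose from a mean of 52.5 in NSPs to 234.8 at 72 h and 405.9 at 1 week (2.94 ± 0.15, limma, adjusted p = 3.7e-16). With TNF, where 1.46% and 2.98% of all start peaks were higher at 24 h and 72 h, 1 was called higher at 24 h, Flnc (0.83 ± 0.18), and 2 at 72 h, Tpm3 (0.32 ± 0.10) and Tagln2 (0.69 ± 0.18; limma, adjusted p = 0.0031, 0.029 and 0.012). Among the 3 mural markers with a start peak 1 was called higher and 2 lower at 1 week than in NSPs, with a median of -0.35. Myh11, the smooth muscle myosin heavy chain, had means of 84.8 in NSPs and 188.9 at 72 h, and 96.3 with TNF at 72 h (-0.98 ± 0.28, limma, adjusted p = 0.018). Kcnj8 fell by 1.02 from NSPs to 1 week (limma, adjusted p = 4.8e-06). Their part in the values of the listed genes was not tested.

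The genes whose gene-end peak was most alike to the Palld peak 17.4 kb past the innermost start over the 19 libraries were Ect2 (Pearson r = 0.979), Tnfaip3 (0.978), Epdr1 (0.975), Olfr1344 (0.971) and Trafd1 (0.971), of 13334 such peaks. The points share libraries, scaling and the low NSP values. The nearest peaks outside the 10 kb windows lay 10.0 to 28.1 kb from the gene. They include one of Cnn1 at 10.6 kb and one of Tpm2 at 12.1 kb with log2 changes at 24 h over NSPs of 2.91 and 2.41, while those inside these windows ran up to 0.21 and 0.13.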

How the data were processed

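Per the labels, the authors ran FastQC, Trim Galore, Bowtie2, SAMtools and MACS2 on mm10, and the study's methods add removal of blacklisted regions, HOMER and DiffBind. Versions, duplicate handling and any shift of reads for the transposase were not given in the sources used here. Values deposited by the authors are a normalised signal for each peak in each library. In every library 100% of values were whole multiples of the lowest (tolerance 0.01), so reads divided by a size factor were recovered. The 10 genes and lists were chosen with earlier results of these data known. Groups came from sample titles. log2(value + 1) was fitted with limma-trend (limma 3.58.1, R 4.3.3) over all 19 libraries and 6 groups, for 88919 peaks that passed filterByExpr (edgeR 4.0.16, minimum count 10), with Benjamini-Hochberg adjustment over all of them and calls at an adjusted p under 0.05. All 72 peaks were tested. The script was tested on simulated data. Alternatives were edgeR's quasi-likelihood test (TMM or RLE), DESeq2 1.42.0, total-read and loess scaling, a pseudocount of 8, no filter, only the groups compared, replicate blocks, other windows around genes and leaving out each library. Peaks named were, per gene, that nearest to a start and that with the widest range, and per comparison other than 24 h against NSPs the called peaks of smallest p, 1 per gene and at most 3 a direction. The Palld peak of largest rise at 24 h was named too, and a few further peaks after their values were seen, as said beside them. Coordinates are as deposited. Depth limits precision at peaks of few reads.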

Additional observations from a re-analysis of the deposited data

Results flagged for a closer look

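The value flagged here was not alone in standing apart within its group. NSP replicate 1 had 430.5 normalised reads at the Vcl peak 91.2 kb past the start, against 68.3 and 49.8 in the other NSP libraries. At the Palld peak 37.2 kb past the outermost start it had 329.5, against 151.2 and 146.2. The flagged value was that of the highest 1 week library at the Srf start peak, 1440 normalised reads (1437 before rounding). The other 3 of the 4 libraries had 1332 to 1340, a gap of 0.924 of the group's range by Dixon's test. Chance alone gives such a flag in about 1 of 20 groups.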

How the results depend on the processing

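From 72 h to 1 week the counts were 35 higher and 7 lower. Scaling to total reads left 15 higher, gene bodies alone (52 peaks) 23 higher, loess scaling 1 lower and the replicate block 4 lower. Of the calls, 83.3% were higher (58.2% over all peaks), and 62.5% with total-read scaling (21.0%) and 96.3% with loess (52.9%). With TNF at 24 h DESeq2 called 1 lower instead of 2, since it gave the Vcl peak 91.2 kb past the start no adjusted p. With TNF at 72 h 5 were higher with edgeR (TMM) and 14 when only the groups compared were fitted, against 8. The interaction gave 1 lower when only the groups compared were fitted. The Srf start peak turned from 0.43 to -0.18 from 72 h to 1 week under loess scaling.

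Leaving out 1 library at a time gave 26 to 32 higher and 11 to 12 lower at 72 h over NSPs, and 38 to 44 and 5 to 8 at 1 week. It gave 27 to 38 higher and 2 to 8 lower at 1 week over 72 h, with 3 lower without 1 week replicate 3, 2 without 72 h replicate 1 and 4 without 72 h replicate 2 or 3. It gave 5 to 10 higher and 1 to 3 lower with TNF at 24 h, with 5 higher without 24 h replicate 1 or 24 h TNF replicate 2 and 1 lower without 24 h replicate 1, 2 or 3 or 24 h TNF replicate 3. It gave 5 to 13 higher and 3 to 5 lower with TNF at 72 h, with 13 without NSP replicate 1 and 5 without 72 h replicate 2 or 3 or 72 h TNF replicate 2. For the interaction it gave 0 higher and 0 to 1 lower, with 1 without NSP replicate 1. The cause of these shifts was not tested.

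Same-numbered replicates did not deviate together (correlations from -0.03 to 0.11), so the labels' numbers were not taken as pairs. With the replicate block, counts were 30 and 12, 40 and 5, 31 and 4, 8 and 2, and 7 and 3 higher and lower in the order of comparisons above, and 0 for the interaction. Counts with TNF at 24 h in this section include the Palld peak that chose the list.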
